A study of Mus musculus with 6 samples.

Results

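The cell cycle and proliferation genes described here are 35 genes for DNA replication, mitosis, cyclins with their kinases and cell cycle inhibitors, taken by symbol from the 26018 genes of the deposited table. Each of the 35 symbols stood on a single row, and all 35 passed the filter on low reads, which kept 16314 genes for testing. Their transcripts were measured by bulk RNA sequencing of the uteri of female mice that were 6 weeks old and matched for body weight. In 3 of the mice, the conditional knockouts (cKO), Tcf21 was deleted (Tcf21d/d), and the other 3, the controls, carried floxed but intact copies (Tcf21f/f). No animal was treated, and every library came from a separate animal. TCF21 is a transcription factor of the basic helix-loop-helix family that is active in mesenchyme, and the comparison asked which genes act downstream of it in the growing uterus. The sources used here name neither the Cre driver nor the part of the gene it removes.

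Tcf21 itself had normalised read counts of 26.0, 0 and 0 in cKO replicates 1 to 3, against 341, 152 and 144 in control replicates 1 to 3, and a count of 0 allows up to 2.93 in cKO replicate 2 and 3.31 in cKO replicate 3. The libraries held from 14584450 to 16579573 reads on genes. The label uterus was checked against marker genes. Stromal and smooth muscle markers were present in all 6 libraries, while Foxa2, a marker of uterine glands, had no read in any cKO library or in control replicate 3 and normalised counts of 3.59 and 89.0 in control replicates 2 and 1. In the cKO mean of log2 values 6 of 7 smooth muscle markers and 5 of 8 stromal markers were lower. The other 3 stromal markers were higher. Hoxa11, among the lower ones, was at 36.2, 35.1 and 3.31 in cKO replicates, against 896, 470 and 67.6 in control replicates. Pdgfra, among the higher ones, was at 4408, 3031 and 3193 in cKO replicates, against 2389, 2229 and 3083 in control replicates. The 8 epithelial markers together took 0.00231 to 0.00459% of reads in cKO libraries and 0.00294 to 0.0382% in controls. Markers of skeletal muscle, a tissue that the label uterus does not cover, took 5.55 to 8.18% of cKO reads and 2.66 to 5.51% of control reads. Smooth muscle markers took less, 0.461 to 0.647% of cKO reads and 0.919 to 1.40% of control reads. The part of skeletal muscle RNA in the values of the 35 genes was not tested. In control replicate 1 liver markers took 1.44% of reads, against at most 0.00816% elsewhere, neuron markers were highest in control replicate 3 (0.0464%, against at most 0.00816% elsewhere), and intestinal markers were highest in control replicate 2 (0.0141%, against at most 0.00528% elsewhere). Values that rest on a single control library are therefore given library by library.

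A dividing cell first licenses its replication origins by loading the MCM helicase, then copies its DNA with the help of the PCNA clamp and a supply of deoxynucleotides, and then condenses and separates its chromosomes under the control of mitotic kinases. Cyclins switch on the cyclin-dependent kinases (CDKs) that drive each step, D-type and E-type cyclins before and at the start of replication and A-type and B-type cyclins later, and CDK inhibitors hold cells back. Transcripts for replication are known to peak around the start of DNA synthesis under E2F factors, and those for mitosis peak late in the cycle. In the mouse uterus, cell division in epithelium and stroma follows the ovarian hormones. In bulk tissue a lower share of dividing cells and less RNA per cell cannot be told apart.

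None of the 35 genes passed the test between cKO and control uteri. The test was limma on log2(value + 1) with Benjamini-Hochberg adjustment over all 16314 genes tested and a threshold of 0.05, at which 1.16% of all genes tested were called, 0.276% as higher and 0.889% as lower in cKO uteri. At a threshold of 0.1, which 2.29% of all genes passed, none of the 35 passed either. The test had little power for small changes. In simulated reads it called 0% of 50 genes changed 1.5-fold, 6% of 50 changed 2-fold and 74% of 50 changed 4-fold at 0.05. Tcf21, the deleted gene, had a limma adjusted p of 0.0765. A gene that was not called is therefore not shown to be unchanged. At an unadjusted p under 0.05 limma gave 6 of the 35, or 17.1%, against 13.7% of all genes tested. The 3 with higher cKO values were Cdt1, Aurkb and Plk1 (6.11% of all genes tested were of this kind), and the 3 with lower ones were Ccnd2, Cdkn1b and Cdkn2c (7.6% of all genes). On the same reads, edgeR and limma-voom also called none, where they called 0.926% and 0.435% of all genes. DESeq2 called 1 of the 35, Ccnd2 as lower, and called 5.52% of all genes with an adjusted p, 3.72% as lower. The authors' deposited table, in which 3.25% of genes have an adjusted p under 0.05, 2.37% as lower, also lists Ccnd2 alone among the 35, at -1.04 on the log2 scale with an adjusted p of 0.0285.

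Most of the 35 genes had a higher cKO mean, the D-type and E-type cyclin genes and 2 inhibitor genes being the main exceptions. In the limma fit 27 of the 35 had a higher cKO mean of log2 values and 8 a lower one, with a median log2 fold change of 0.34. Over all genes tested 50.3% were higher, and the median was 0.0020. The 3 cKO libraries lay all above the 3 controls for 7 of the 35 (Mcm2, Cdt1, Tyms, Cdk2, Aurka, Aurkb and Plk1) and all below for 3 (Ccnd2, Cdkn1b and Cdkn2c). Such separation was seen for 28.6% of these genes and for 19.6% of all genes tested, of which 9.04% were higher and 10.5% lower in cKO uteri. Leaving out control replicates 1 and 3 together, the libraries with liver and neuron transcripts, gave 26 higher and 9 lower and a median of 0.38. That fit rests on 1 control, replicate 2. Among the controls this library had the highest share of intestinal markers (0.0141%) and of leukocyte markers (0.170%). The 95% confidence interval of the log2 fold change lay inside -1 to 1, that is within a 2-fold change either way, for 12 of the 35 genes. For the other 23 the interval reached a 2-fold change or beyond.

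**Figure D1:**
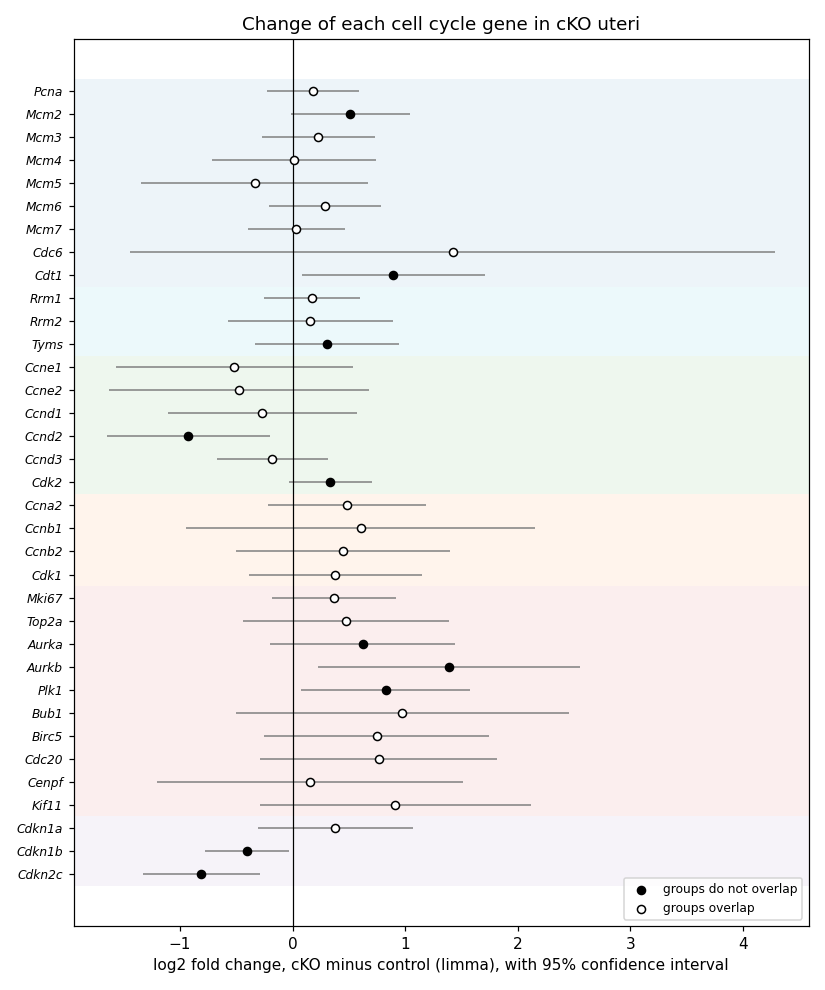
Log2 fold change of each of the 35 genes, cKO minus control, on the x axis, with the 95% confidence interval of the limma fit as a line (n = 3 libraries per group) and shaded bands for the 6 classes. Filled points mark the 10 genes whose groups do not overlap, and the mitotic genes in the band above the inhibitors all lie right of 0 while 5 of 6 genes of the band with the G1 cyclins lie left of it.

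Levels are comparable between genes only per length, so counts were divided by the gene length in the authors' deposited table. For 96.5% of shared genes this length equals the merged exons of all transcripts in GENCODE vM21. It can exceed the length of the transcript in use, so places between genes are approximate. On this scale of normalised counts per kb, the inhibitor gene Cdkn1a was the highest of the 35, with 708 ± 261 in cKO and 528 ± 124 in control uteri (SD, n = 3 each). Pcna came next with 284 ± 8.33 in cKO and 253 ± 52.5 in control uteri, and the inhibitor gene Cdkn1b with 169 ± 28.2 in cKO and 222 ± 4.36 in control uteri. Pcna and Cdkn1b were apart by more than their spread in cKO uteri but not in controls. The proliferation marker gene Mki67 stood at 28.8 ± 3.35 in cKO and 22.8 ± 5.82 in control uteri, and the spindle checkpoint gene Bub1 at 5.60 ± 2.61 in cKO and 2.64 ± 1.11 in control uteri. Cenpf, which encodes a kinetochore protein, was the lowest, with 2.43 ± 0.316 in cKO and 2.62 ± 1.64 in control uteri. Bub1 and Cenpf did not differ beyond their spread in control uteri. Inhibitor and D-type cyclin transcripts thus filled 5 of the 6 highest places in controls, and Ccnd2 took place 6 there and place 12 in cKO uteri.

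**Figure D2:**
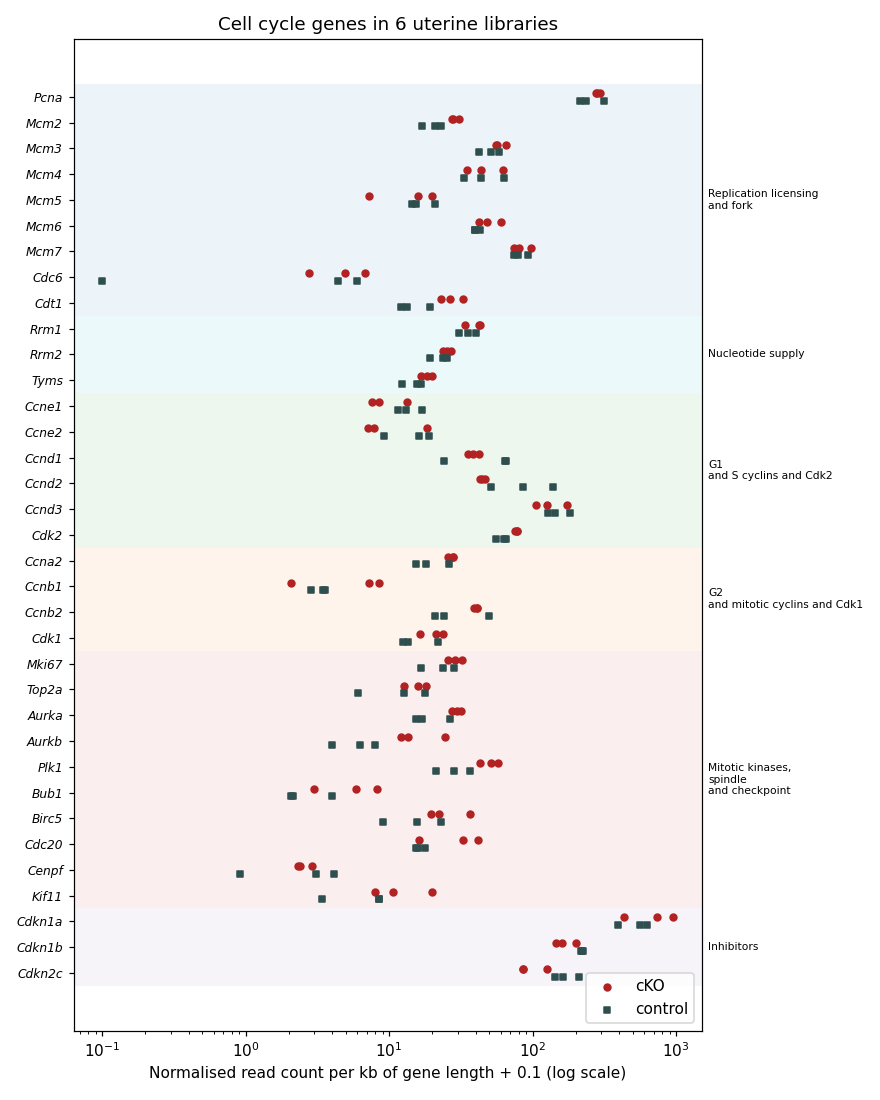
Normalised read count per kb of gene length plus 0.1 (x axis, log scale) of the 35 genes in each of the 6 libraries, with cKO libraries as circles and control libraries as squares, grouped by class. Cdkn1a and Pcna lie at the high end, and the square at the left edge is Cdc6 in control replicate 3, which had no read.

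The genes of replication licensing and of the replication fork had a slightly higher sum in the cKO uteri. The summed normalised count was 2133, 2074 and 1918 in cKO replicates 1 to 3, against 1758, 1904 and 1702 in control replicates 1 to 3. These sums did not overlap, though control replicate 2 came close to cKO replicate 3. Summed per kb of gene length the groups overlapped, at 619, 602 and 574 in cKO replicates and 508, 581 and 496 in control replicates. Of the 9 genes 8 had a positive log2 fold change, and the median was 0.23. Limma, edgeR and DESeq2 called none, and 1 (11.1%, against 13.7% of all genes tested) had an unadjusted limma p under 0.05. That gene was Cdt1, the loading factor that brings the MCM helicase to origins. It had 83.6, 72.2 and 103 normalised counts in cKO replicates, against 41.5, 60.2 and 37.4 in control replicates. All 3 cKO values stood above the highest control, and the difference was 0.90 ± 0.36 on the log2 scale (SE of the limma fit, here and for the other genes; 3 libraries per group) at a limma adjusted p of 0.318. With control replicates 1 and 3 left out that log2 fold change was 0.50.

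Mcm2, a subunit of the helicase, was at 213, 189 and 193 in cKO uteri, against 159, 145 and 117 in controls. Its groups were separate too, at 0.51 ± 0.23 on the log2 scale (limma adjusted p 0.382.) The other MCM subunit genes did not share this pattern. Mcm4 was at 223, 157 and 125 in cKO replicates and at 118, 157 and 228 in control replicates, which is nearly the same range. Mcm3, Mcm6 and Mcm7 had log2 fold changes of 0.23, 0.29 and 0.03, and their groups overlapped. Mcm5 had the lowest value of the class, -0.34 ± 0.45, with cKO values of 63.2, 79.0 and 28.7 and control values of 57.3, 83.6 and 61.4. The 6 products form 1 ring-shaped helicase, and the log2 fold changes of their transcripts thus ran from -0.34 to 0.51.

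Pcna was at 675, 664 and 703 in cKO uteri and at 562, 749.5 and 509.8 in controls, with control replicate 2 above all cKO libraries. Its log2 fold change of 0.18 had a 95% interval from -0.23 to 0.59. Cdc6, which loads the helicase together with Cdt1, had few reads: 15, 36 and 23 in cKO libraries and 25, 25 and 0 in controls. In normalised counts these are 13.9, 35.1 and 25.4 in cKO uteri and 30.5, 22.5 and 0 in controls. The 0 in control replicate 3 allows a normalised count of up to 2.67. Its log2 fold change of 1.42 ± 1.26 rests on that library and was -0.17 without it. Near-identical copies limit some of these values: 1528 bases of Cdc6 and 2157 bases of Mcm7 match stretches of another gene at 95% identity or more, and Pcna shares 781 bases with the pseudogene Pcna-ps2.

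The genes for enzymes of deoxynucleotide supply summed to 1.14 times the control mean in cKO uteri, with overlapping sums. Tyms, thymidylate synthase, was at 101.3, 121 and 110.5 in cKO uteri and at 95.1, 74.6 and 100.5 in controls. The highest control was less than 1 count below the lowest cKO library, and the log2 fold change was 0.30 ± 0.28. Near-identical stretches in 32 other genes, the longest of 677 bases in Tyms-ps, make part of the Tyms reads uncertain. The ribonucleotide reductase genes Rrm1 and Rrm2 had log2 fold changes of 0.17 and 0.16, with overlapping groups. Rrm2, whose product is the subunit that limits the enzyme during DNA synthesis, was at 66.0, 70.2 and 74.0 in cKO uteri and at 65.8, 53.02 and 70.3 in controls. None of the 3 was called by limma, edgeR or DESeq2, and none had an unadjusted limma p under 0.05.

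The D-type and E-type cyclin genes were lower in the cKO mean, each of the 5. Ccnd2, cyclin D2, which pairs with CDK4 and CDK6 to start the cycle in response to growth signals, had the lowest log2 fold change of the 35. It was at 416, 404 and 439.8 in cKO replicates 1 to 3, against 485, 803 and 1304 in control replicates 1 to 3. The cKO libraries lay close together and below every control, while the controls spread widely. The cKO mean was 0.486 times the control mean, and the difference was -0.93 ± 0.32 on the log2 scale with a 95% interval from -1.65 to -0.20. The adjusted p was 0.246 with limma, 0.202 with edgeR and 0.0372 with DESeq2. Leaving out control replicate 1, the lowest control, gave -1.28 and a limma adjusted p of 0.0179, and leaving out control replicate 3, the highest, gave -0.57 and 0.318. Without both of these controls the log2 value was -0.94 (limma adjusted p 0.0306), a fit in which the single control left is assumed to vary like the cKO libraries. Smooth muscle markers, 6 of 7 of them called lower by limma, took 0.461, 0.647 and 0.526% of reads in cKO replicates and 0.919, 1.40 and 1.33% in control replicates. In cKO replicates most of these reads came from Des, the marker not called. Des was at 60821, 92182 and 75687 normalised counts in cKO replicates and at 60998, 74438 and 82710 in control replicates. Myh11, among the 6 called, was at 1435, 1524 and 1240 in cKO replicates, against 22862, 41998 and 32477 in control replicates. Neuron markers took 0.0464% in control replicate 3 and 0.00313 and 0.00816% in control replicates 1 and 2. The part of such cells in the Ccnd2 values was not tested.

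Ccnd2 (GRCm38, chromosome 6, 127125162 to 127152193, minus strand) has 7 merged exons, and exons of the opposite strand cover 7.86% of its exon bases. The other D-type cyclins were closer between groups. Ccnd1 was at 166, 180.4 and 199.99 in cKO uteri and at 113, 300.2 and 308 in controls, so control replicate 1 was below and the other 2 controls were above all cKO libraries. Opposite-strand exons cover 23.4% of Ccnd1. Ccnd3 was at 926, 1514 and 1113 in cKO uteri and at 1122, 1257 and 1605 in controls, with a log2 fold change of -0.18 ± 0.22. It shares near-identical stretches with 64 other genes, the longest of 881 bases with Ccnd3-ps. Ccne1 and Ccne2, the E-type cyclins that activate CDK2, had log2 fold changes of -0.52 ± 0.47 and -0.48 ± 0.51, on 18 to 62 reads per library, with overlapping groups.

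Cdk2, the kinase partner of the E-type cyclins, had higher cKO values. It was at 480.4, 470.0 and 484 in cKO uteri, against 343, 392 and 404 in controls. The cKO values were tight and all above the controls, at 0.34 ± 0.16 on the log2 scale (limma adjusted p 0.415.) Over the class of 6 genes limma and edgeR called none, and DESeq2 called Ccnd2. An unadjusted limma p under 0.05 was seen for 1 (16.7%, against 13.7% of all genes tested).

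The cyclins and the kinase of late cycle stages were higher in the mean. Ccna2, cyclin A2, was at 113, 104 and 114 in cKO uteri and at 106, 62.0 and 73.8 in controls. Ccnb2, a B-type cyclin that drives entry into mitosis, was at 62.3, 62.4 and 59.7 in cKO uteri and at 75.6, 36.8 and 32.0 in controls. Cdk1, the kinase of mitosis, was at 79.9, 116 and 105 in cKO uteri and at 107, 66.5 and 61.4 in controls. In all 3 genes control replicate 1 stood inside or above the cKO range, while control replicates 2 and 3 stood below it. Summed over these genes with Ccnb1, the class was at 264, 313 and 314 in cKO replicates and at 304, 177 and 181 in control replicates. Control replicate 1 is the library with liver transcripts, whose part here was not tested. Ccnb1, the other B-type cyclin gene, had 9 to 32 reads per library, with 8.36, 30.2 and 35.4 normalised counts in cKO uteri and 14.6, 11.7 and 14.2 in controls. It had a log2 fold change of 0.61 ± 0.69, and 1294 of its bases match another gene nearly identically. Limma, edgeR and DESeq2 called none of the 4, and none had an unadjusted limma p under 0.05.

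Among the 10 genes of mitotic kinases, spindle and checkpoint, every log2 fold change in the limma fit was positive, with a median of 0.76. With edgeR and DESeq2 9 were positive, and Cenpf was at -0.11 in both. Their summed normalised count was 880.0, 1021 and 893 in cKO replicates, against 695, 540.1 and 674 in control replicates. The cKO sums were thus all higher, and the ratio of the group means was 1.46. Limma, edgeR and DESeq2 called none of the 10, and 2 (20%, against 13.7% of all genes tested) had an unadjusted limma p under 0.05. With 1 library left out at a time the median lay between 0.55, without cKO replicate 2, and 0.86, without cKO replicate 1, and 9 of the 10 were positive without control replicate 2. Without control replicates 1 and 3 together, which leaves the control with the lowest mitotic sum, all 10 were positive with a median of 0.81. Leukocyte markers took 0.129, 0.106 and 0.180% of reads in cKO replicates and 0.0415, 0.170 and 0.04996% in control replicates. In every library most of these reads came from Lyz2. Lyz2 was at 17376, 14554 and 26896 normalised counts in cKO replicates and at 5883, 22506 and 5587 in control replicates. Among the controls the leukocyte markers together were highest in replicate 2. Of these 8 markers 5 passed the filter and none was called by limma, with 1 called higher by DESeq2. Markers of immature lymphoid and myeloid cells took at most 0.000288% of the reads of any library. The part of leukocytes in the mitotic values was not tested.

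Aurkb, the kinase of the chromosomal passenger complex, had the largest log2 fold change of the class, 1.39 ± 0.52, with a limma adjusted p of 0.276. It was at 71.5, 35.1 and 39.8 in cKO uteri, against 18.3, 23.4 and 11.6 in controls. The lowest cKO value was above the highest control, on 36 to 77 reads in cKO and 13 to 26 reads in control libraries. Plk1, the polo-like kinase that drives mitotic entry, was at 112, 127 and 93.9 in cKO uteri, against 80.5, 46.7 and 62.3 in controls. These groups were separate as well, at 0.83 ± 0.33 on the log2 scale (limma adjusted p 0.317.) Aurka, the centrosomal Aurora kinase, was at 68.8, 75.1 and 79.6 in cKO uteri and at 42.7, 38.6 and 66.7 in controls, with a log2 fold change of 0.62 ± 0.36.

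The other genes of the class had overlapping groups. Mki67, whose product coats mitotic chromosomes and is used as a marker of dividing cells, was at 289.9, 324 and 256 in cKO uteri and at 239, 166 and 282 in controls. Its log2 fold change of 0.37 had a 95% interval from -0.18 to 0.91, which does not reach a 2-fold rise. Top2a, the topoisomerase that untangles sister chromosomes, was at 143, 161 and 114 in cKO uteri and at 159.7, 113 and 53.4 in controls. Cdc20, an activator of the anaphase-promoting complex, was at 29.7, 78.0 and 60.8 in cKO uteri and at 29.3, 28.8 and 32.9 in controls, so cKO replicate 1 was level with the controls. Bub1, Birc5 (survivin, of the passenger complex) and Kif11 (a spindle motor) had log2 fold changes of 0.98 ± 0.66, 0.75 ± 0.44 and 0.91 ± 0.53. Cenpf was at 35.3, 34.1 and 43.1 in cKO uteri and at 46.3, 12.6 and 62.3 in controls, the widest control spread of the class relative to its mean.

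**Figure D3:**
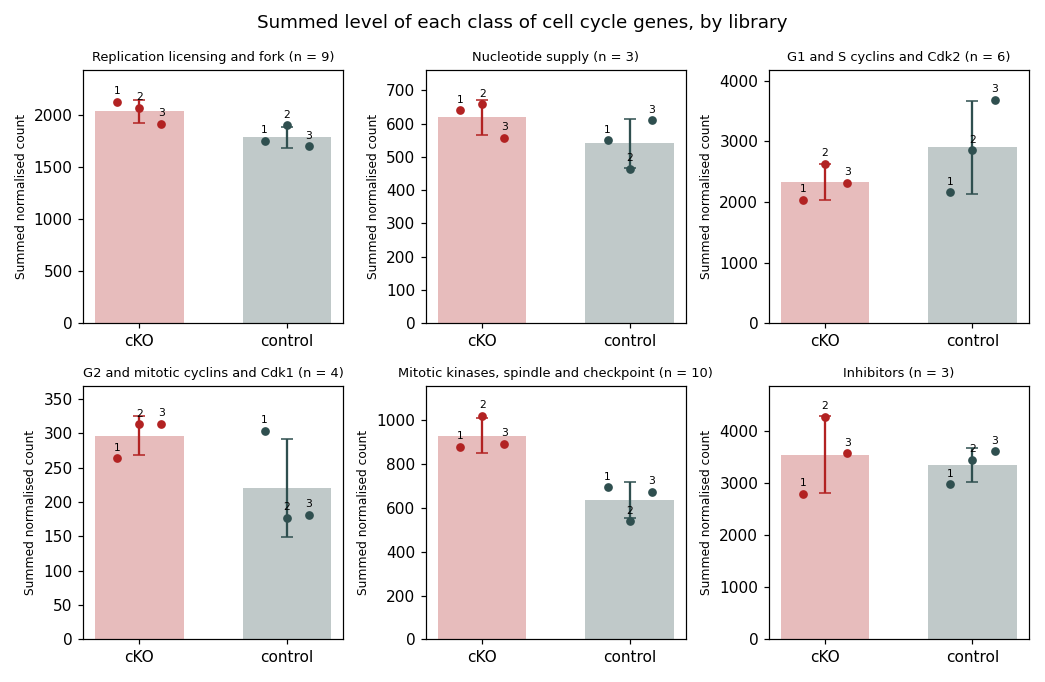
Summed normalised read count (y axis, from 0) of each class by library, with numbered points for replicates, bars for the mean and error bars for the SD (n = 3 per group), cKO left of control; the n in each title counts genes. The sums of the mitotic kinases, spindle and checkpoint class do not overlap between groups (880.0 to 1021 in cKO, 540.1 to 695 in control), and in the class with Cdk1 control replicate 1 lies within the cKO range.

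The 3 inhibitor genes differed in direction. Cdkn2c, an inhibitor of CDK4 and CDK6 of the INK4 family, was at 336, 229 and 229 in cKO uteri, against 567, 436 and 386 in controls. All cKO values were below the lowest control, and the difference was -0.81 ± 0.23 on the log2 scale. Its unadjusted limma p, 0.00655, was the smallest of the 35 genes, and the limma adjusted p was 0.162. The DESeq2 adjusted p was 0.0601, and the authors' deposited table lists 0.0852. Its log2 fold change was between -0.99 and -0.65 with each library left out in turn. Cdkn2c (GRCm38, chromosome 4, 109660876 to 109667189, minus strand) has 3 merged exons and neither overlaps exons of other genes nor shares near-identical stretches with them.

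Cdkn1b, an inhibitor of CDK2 complexes that holds cells in quiescence, was at 909.7, 660.2 and 731 in cKO uteri, against 1027, 1013 and 988 in controls. The controls lay close to each other and all above the cKO libraries, at -0.41 ± 0.17 on the log2 scale (limma adjusted p 0.321.) Cdkn1a, the inhibitor known as a target of the tumour suppressor protein Trp53, was at 1544, 3391 and 2615 in cKO uteri and at 1388, 1999 and 2240.1 in controls. Its groups overlapped, and its log2 fold change was 0.38 ± 0.30. Near-identical stretches of 97 other genes, up to 262 bases long, make part of the Cdkn1a reads uncertain. Of the 3 genes limma, edgeR and DESeq2 called none, and 2 had an unadjusted limma p under 0.05, as did 13.7% of all genes tested. Skeletal muscle markers took 5.55, 8.18 and 7.67% of reads in cKO replicates and 2.66, 5.51 and 3.68% in control replicates, and Cdkn1a is also known as a gene of muscle differentiation. The part of muscle RNA in the inhibitor values was not tested.

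**Figure D4:**
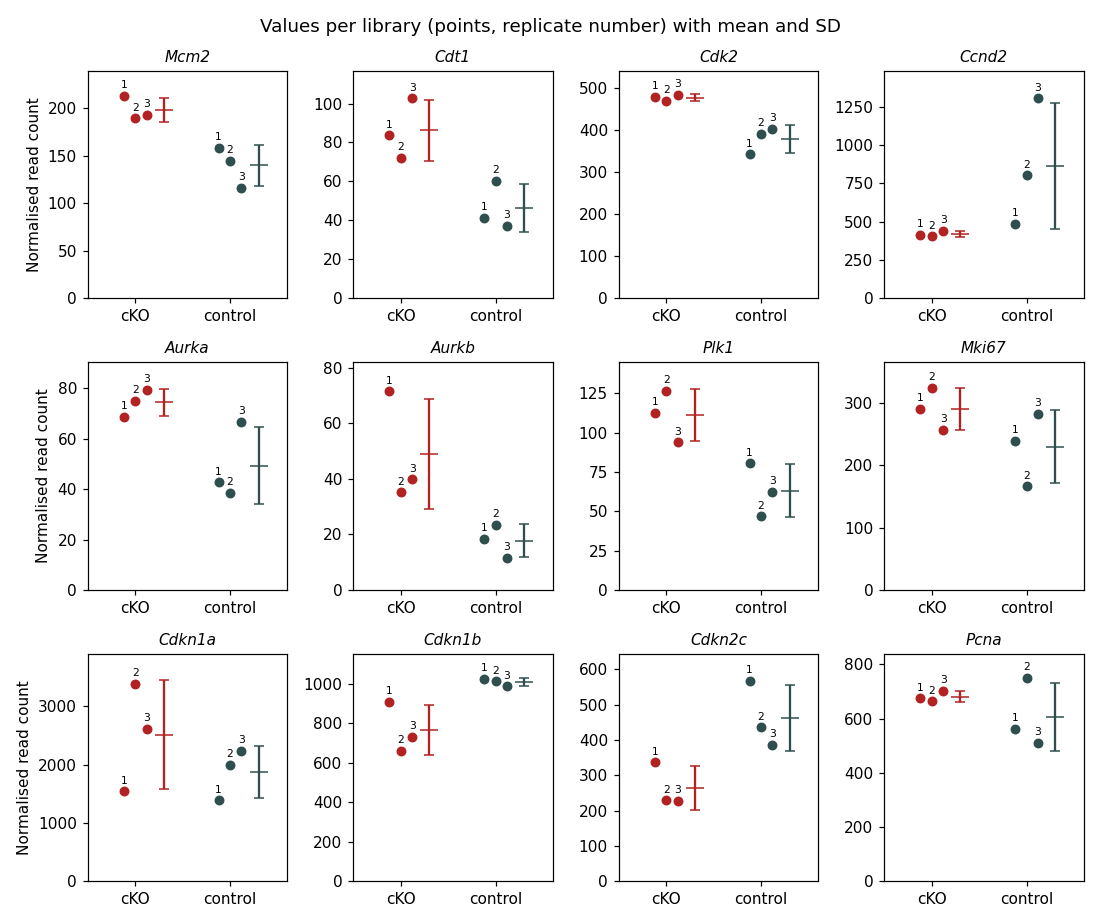
Normalised read counts (y axis, from 0) of 12 of the genes in each library, with points numbered by replicate and the mean with SD beside them (n = 3 per group), cKO left of control. Mcm2, Cdt1, Cdk2, Aurka, Aurkb and Plk1 lie higher in all cKO libraries, Ccnd2, Cdkn1b and Cdkn2c lie lower in all of them, and Mki67, Cdkn1a and Pcna overlap.

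Promoter windows were available in the RefSeq table (GRCm38.p6) for 29 of the 35 genes, with none for Mcm4, Ccna2, Ccne2, Ccnd1, Ccnd2 and Aurkb. The 250 bases before the start were searched on both strands. The CCAAT box, spelled CCAAT, was found for 21 of the 29 genes (72.4%) and for 34.5% of the first windows of all 27025 genes in that table. An E2F-like motif, spelled TTTNNCGC, was found for 6 of 29 (20.7%, against 4.39% of all), and the cell cycle homology region motif, spelled TTTGAA, for 7 of 29 (24.1%, against 16.3%). The E-box, spelled CANNTG, the kind of site that basic helix-loop-helix factors are known to bind, was found for 10 of 29 (34.5%, against 66.0%). CCAAT followed by TG also spells an E-box, so these matches can overlap, and only letters were matched. By class, CCAAT was found for 8 of 9 mitotic genes, 6 of 8 replication genes and 1 of 3 inhibitor genes, and 4 of the 6 genes with TTTNNCGC were replication genes (Mcm5, Mcm6, Mcm7 and Cdc6).

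The 150 bases just before the start are shown for the 5 genes whose groups did not overlap and whose stretch holds a match, written 5′ to 3′ on the gene's strand with matches to the CCAAT box, the homology region motif or the E2F-like motif on either strand in capitals (GRCm38.p6).
Mcm2, chr6:88898781-88898930, minus strand: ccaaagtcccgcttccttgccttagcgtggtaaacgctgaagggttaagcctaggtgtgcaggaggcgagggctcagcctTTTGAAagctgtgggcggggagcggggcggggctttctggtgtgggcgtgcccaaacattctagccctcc
Cdk2, chr10:128705052-128705201, minus strand: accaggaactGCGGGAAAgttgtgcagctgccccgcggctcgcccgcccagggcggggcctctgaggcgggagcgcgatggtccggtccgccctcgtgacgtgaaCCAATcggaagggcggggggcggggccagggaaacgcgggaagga
Aurka, chr2:172370571-172370720, minus strand: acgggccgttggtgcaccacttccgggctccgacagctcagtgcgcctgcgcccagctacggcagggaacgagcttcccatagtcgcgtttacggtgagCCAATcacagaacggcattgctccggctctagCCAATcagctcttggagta
Plk1, chr7:122159285-122159434, plus strand: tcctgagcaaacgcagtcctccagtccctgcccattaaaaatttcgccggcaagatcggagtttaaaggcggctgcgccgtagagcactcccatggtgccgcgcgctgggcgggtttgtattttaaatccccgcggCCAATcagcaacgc
Cdkn1b, chr6:134920251-134920400, plus strand: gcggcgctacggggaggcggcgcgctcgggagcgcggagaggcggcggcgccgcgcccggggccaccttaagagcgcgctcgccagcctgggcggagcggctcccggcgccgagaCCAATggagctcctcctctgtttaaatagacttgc
The mitotic genes Aurka and Plk1 hold CCAAT within 51 bases of the start, Aurka at 2 places. In the bases shown Mcm2 holds TTTGAA, and Cdk2 holds both CCAAT and an E2F-like match. Mcm2 also holds CCAAT at position -175, within the 250 bases searched but outside the 150 shown. Cdkn1b, with lower cKO values, holds CCAAT as well, so in this window the motif stood before genes of either direction. For Cdt1, Tyms and Cdkn2c none of these 3 motifs was found in the 250 bases searched, and the Cdkn2c window starts 433 bases from the gene end in the deposited table.

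Further cell cycle genes were described by lists that hold none of the 35, chosen from textbook knowledge with earlier results of these data known. Ccng1 stands both in the list of other kinase and inhibitor genes and in that of Trp53 targets. Of 37 mitosis genes 26 had a positive and 11 a negative log2 fold change, with a median of 0.18. Limma, edgeR and DESeq2 called none of them, and 6 (16.2%, against 13.7% of all genes tested) had an unadjusted limma p under 0.05, of which 5 were positive. The groups did not overlap for 6 of the 37 (16.2%, against 19.6% of all genes tested). The summed normalised count of the list was 4554, 4989 and 4429 in cKO replicates and 4236, 3989 and 4479 in control replicates. These sums overlapped, with control replicate 3 above cKO replicate 3. The separation of the sums in the class of mitotic kinases, spindle and checkpoint was thus not seen in this list. Kif2c, a microtubule-depolymerising motor, was at 38.1, 44.9 and 51.9 in cKO uteri, against 23.2, 14.4 and 3.56 in controls. Espl1, the separase that cuts cohesin, was at 84.6, 96.5 and 90.6 in cKO uteri, against 52.4, 47.6 and 50.7 in controls. Both had separate groups, with log2 fold changes of 1.94 ± 0.68 and 0.84 ± 0.31 and limma adjusted p values of 0.252 and 0.282. Ube2c, a ubiquitin-conjugating enzyme of anaphase, had a log2 fold change of 0.97 ± 0.36 with overlapping groups. Anln, the cytokinesis protein anillin, was at 97.6, 87.8 and 46.4 in cKO uteri, against 107, 164 and 174 in controls. Its log2 fold change was -0.97 ± 0.37 (limma adjusted p 0.287).

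Of 40 tested replication genes 22 were positive and 18 negative, with a median of 0.05. Limma, edgeR and DESeq2 called none, and none had an unadjusted limma p under 0.05. Cdc45, a partner of the MCM helicase, was at 52.96, 56.6 and 69.6 in cKO uteri, against 19.5, 43.1 and 41.8 in controls, a log2 fold change of 0.83 ± 0.44. Its groups did not overlap, as for 2 more of the 40 genes, or 7.5% in all against 19.6% of all genes tested. These were Pole, a subunit of DNA polymerase epsilon, at 62.3, 49.7 and 59.7 in cKO uteri against 45.1, 43.1 and 10.7 in controls, and Orc2, a subunit of the origin recognition complex. Orc2, named after its values were seen, was lower in all cKO uteri, at 162, 151 and 160, against 179, 204 and 190 in controls (log2 fold change -0.28 ± 0.22). The summed normalised count of the list was 7270.1, 7588 and 6969 in cKO replicates and 7352, 7229 and 7424 in control replicates, so the small difference of the licensing class was not seen over this wider list.

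Of 19 genes of the E2F, retinoblastoma and DREAM complexes, which switch these programmes on and off, 9 were positive and 10 negative, with a median of -0.01. Limma and edgeR called none, 1 (5.26%, against 13.7% of all genes tested) had an unadjusted limma p under 0.05, and DESeq2 called it. It was Lin52, a subunit of the DREAM complex, at 140.3, 121 and 148 in cKO uteri, against 233, 209 and 347 in controls (log2 fold change -0.91 ± 0.26, limma adjusted p 0.159, DESeq2 adjusted p 0.0401). Among 20 other kinase and inhibitor genes 10 were positive and 10 negative. Limma, edgeR and DESeq2 called none of these, and 3 (15%, against 13.7% of all genes tested) had an unadjusted limma p under 0.05. Each of the 3 was positive and had separate groups, which 19.6% of all genes tested had. They were Fbxw7, which marks cyclin E for degradation, Pkmyt1, an inhibitory kinase of CDK1, and the inhibitor gene Cdkn2a. Cdkn2a was at 29.7, 55.6 and 61.9 in cKO uteri, against 24.4, 14.4 and 21.4 in controls, a log2 fold change of 1.22 ± 0.50 (limma adjusted p 0.323).

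Of 13 target genes of Trp53, 10 were positive and 3 negative, with a median of 0.18. Limma and edgeR called none, and 3 (23.1%, against 13.7% of all genes tested) had an unadjusted limma p under 0.05. DESeq2, which called 5.52% of all genes, called 2 of the 13, in opposite directions. The groups did not overlap for 15.4% of the list, against 19.6% of all genes tested. Phlda3, a repressor of AKT signalling, was at 5324, 4693 and 4825 in cKO uteri, against 3226, 2777 and 3391 in controls, and its log2 fold change was 0.66 ± 0.16 (limma adjusted p 0.101, DESeq2 adjusted p 0.00386). Zmat3, an RNA-binding protein gene, was at 219, 279.9 and 275 in cKO uteri, against 485, 464 and 519 in controls, and its log2 fold change was -0.93 ± 0.18 (limma adjusted p 0.0525, DESeq2 adjusted p 0.00174). The gene with the third such p, Trp53inp1, which encodes a stress-induced nuclear protein, had a log2 fold change of -0.80 ± 0.26 (limma adjusted p 0.201). Phlda3 and Zmat3 had groups far apart relative to the spread within each.

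**Figure D5:**
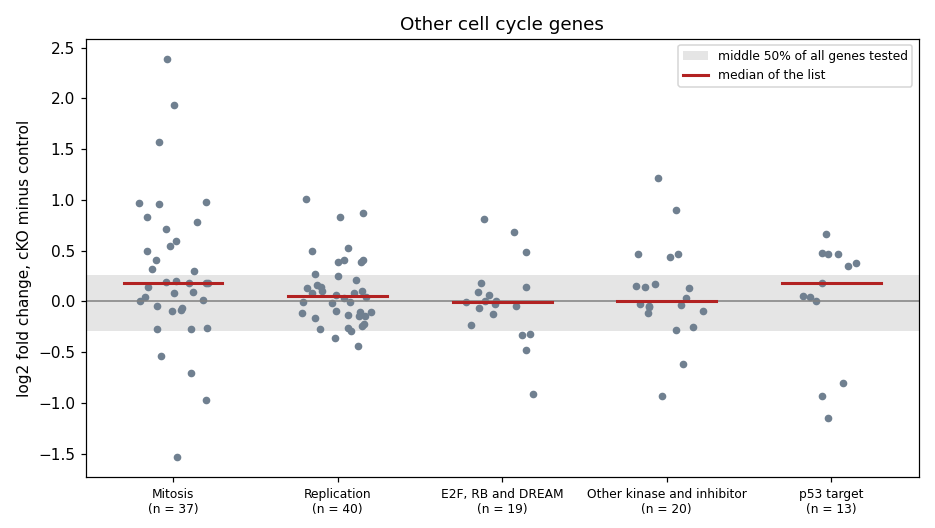
Log2 fold change, cKO minus control (y axis), of each tested gene in 5 lists of further cell cycle genes, with a red line at the median of each list, and the grey band for the middle 50% of all genes tested. The medians of the mitosis list (0.18) and of the other lists all lie inside the grey band, and the mitosis list has the widest spread.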

How the data were processed

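Trizol-extracted uterine RNA gave 1 library per animal, per the labels' protocols. Per the submitters' processing notes the tools were HISAT2, SAMtools and featureCounts and the build GRCm39; the sources used here do not give settings for strand or multi-mapping. Positions are read as GRCm38, since GENCODE vM21 of that build placed 25205 of 25988 shared genes identically. The deposited values, a signal unit called normalised count here, are counts per gene scaled by the authors with 1 size factor a library, as the values show: in each column 100% were whole multiples of 1 step within 0.01 reads, and dividing by it gave whole reads. Log2 fold changes, p-values and adjusted p-values of the authors stand in the same deposited table, from an unnamed tool.

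The main test was limma 3.58.1 (R 4.3.3) on log2(value + 1), with trend and robust options, after filterByExpr of edgeR 4.0.16, on 3 cKO against 3 control libraries. The added 1 shrinks changes of genes with few reads. Fits with edgeR (quasi-likelihood; 151 genes called on the recovered reads), DESeq2 1.42.0 and limma-voom on the recovered reads, other scalings, filters and pseudocounts, a replicate block and left-out libraries were alternatives. Fold changes are cKO over control; 3 reads are the limit a count of 0 allows, which covers counting error only. Near-identical stretches were found with blastn 2.17.0 (95% identity, 100 bases). Steps were tested on simulated data. Animals are separate per the labels, and no pair of libraries agreed within sampling noise.

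The members and lists were chosen with earlier results of these data known. Values in every library are given for those of the 35 genes called by any tool, with separate groups, or highest or lowest of their class. They are also given for Mki67, Pcna, Cdkn1a and Cdkn1b. Of each further list but the replication list, at most 4 genes with the smallest limma p are named, some by fold change alone. In the replication list the 3 genes with separate groups are named. Pola2 (log2 fold change -0.36) and Tk1 (0.52) are left out there, though their limma p was smaller than that of Orc2.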

Additional observations from a re-analysis of the deposited data

How the results depend on the processing

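The number of genes called over the whole table was 45 higher and 145 lower in cKO uteri. It was 280 and 578 with DESeq2, 10 and 61 with limma-voom, 121 and 253 at an adjusted p under 0.1, and 271 and 504 with control replicates 1 and 3 left out together. Without the filter on low reads 82 were higher. Leaving out 1 library in turn gave 1 to 117 higher and 42 to 347 lower genes. Among the 35 cell cycle genes the called number stayed 0 higher in every alternative run. It was 1 lower, Ccnd2, with DESeq2, with control replicates 1 and 3 left out together and without control replicate 1, so it ranged from 0 to 1 over left-out libraries. The replicate block called 0 of the 35 and 34 higher and 149 lower genes in all, and same-numbered libraries did not deviate together (correlations of 0.0084, -0.176 and 0.0438), so the numbers are not read as pairs. Direction turned for Pcna with control replicates 1 and 3 left out together (-0.14), for Mcm4 with edgeR (-0.0037) and limma-voom (-0.0072) and for Cenpf with edgeR (-0.11) and DESeq2 (-0.11). Over left-out libraries the log2 fold change ran from -0.21 to 0.26 for Mcm4, from -0.63 to 0.086 for Mcm5, from -0.077 to 0.13 for Mcm7, from -0.17 to 2.32 for Cdc6 and from -0.51 to 0.60 for Cenpf. The cause was not tested. Of the 35 genes, 7 had under 20 reads in at least 1 library, which limits their precision.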
